A study of Homo sapiens with 79 samples.

Results

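The mRNAs of 10 heat shock and chaperone genes were followed through fRIP-Seq of 24 proteins. The genes were HSPA1A, HSPA1B, HSPA8, HSPH1, DNAJB1, HSP90AA1, HSP90AB1, HSPA5, HSP90B1 and HSPD1. They were chosen by their symbols among the 48453 genes of the table of expression values, and all 10 passed the filter on low values that left 25442 genes. The isoform table held 85 isoforms of these genes. In fRIP-Seq, living cells were cross-linked with 0.1% formaldehyde for 10 min, broken open by sonication and mixed with an antibody to 1 protein, and the RNA that came down was sequenced beside RNA of the lysate (input). The cells were K562, an established human leukemia line that grows in suspension, and the labels give no other treatment and no genetic change for any group. The targets were ADAR, HNRNPH1, HNRNPU, HUR, IMP1 and PABP, which are known as RNA binding proteins, and the chromatin-associated EZH2, SUZ12, CBX3, its phosphorylated form (phospho-CBX3), DNMT1, HDAC1, LSD1, PHF8, CBP, PCAF, RBBP5, WDR5, CHD1, CHD4, CHD7, CTCF, STAG2 and NUP98. There were 3 libraries for each protein except EZH2 and STAG2, which had 2, and 9 input libraries in 3 labelled sets of 3.

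Chaperones bind unfolded protein chains and help them to fold. HSP70 proteins work in cycles of ATP hydrolysis, which HSP40 proteins such as DNAJB1 start and HSP110 proteins such as HSPH1 reset by exchanging the nucleotide. HSP90 proteins act later, on kinases, receptors and other clients that are nearly folded. The same families have members in the endoplasmic reticulum (ER), where HSPA5 (BiP) and HSP90B1 (GRP94) serve secreted proteins, and HSPD1 (HSP60) forms the folding chamber of mitochondria. In stressed cells, heat shock factor 1 binds heat shock elements and raises the cytosolic and mitochondrial chaperones, while the unfolded protein response acts through ER stress response elements on those of the ER. HSPA1A and HSPA1B, the stress-inducible HSP70 genes, have no introns in their main transcripts, in contrast to HSPA8, the constitutive HSP70.

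Sequences from RefSeq (GRCh38.p14) show which of these genes hold motifs of the stress responses in their promoters. The window from 250 bases before to 50 after each listed start of a gene was searched on both strands. Some genes had several windows (35116 windows for 27305 genes), and a gene was counted if any of them held the motif. A heat shock element was read as GAANNTTCNNGAA or TTCNNGAANNTTC, and an ER stress response element as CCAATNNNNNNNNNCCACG. A heat shock element was found in 4 of the 10 genes against 0.608% of 27305 genes with a promoter in the reference, and an ER stress response element in HSPA5 and HSP90B1 against 0.0916% of those genes. The stretches below are printed with the motif in capitals. The ER stress response element was in the ER chaperones alone, and the heat shock element in 4 of the other genes but not in all.
HSPA8, chr11:123062159-123062211, minus strand: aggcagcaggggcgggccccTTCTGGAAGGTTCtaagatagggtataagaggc
HSP90AA1, chr14:102087100-102087152, minus strand: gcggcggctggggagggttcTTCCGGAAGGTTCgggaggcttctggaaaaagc
HSP90AB1, chr6:44247811-44247863, plus strand: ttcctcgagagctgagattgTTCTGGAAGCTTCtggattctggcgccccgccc
HSPD1, chr2:197500048-197500090, minus strand: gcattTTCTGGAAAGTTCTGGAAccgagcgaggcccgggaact
HSPA5, chr9:125241371-125241429, minus strand: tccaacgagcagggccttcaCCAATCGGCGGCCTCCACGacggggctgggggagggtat
HSP90B1, chr12:103930301-103930359, plus strand: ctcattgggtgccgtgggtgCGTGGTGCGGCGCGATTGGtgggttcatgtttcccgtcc
Where a window held more than 1 match, the one nearest the start is printed: HSP90AB1 and HSPA8 each held another heat shock element farther upstream. The printed element of HSP90B1 lies on the opposite strand, and another on its own strand lies farther upstream. In HSPD1 the capitals cover both spellings of the heat shock element, which overlap there. The other 4 genes held neither element in any of their windows, from which nothing follows about the binding of a factor.

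Values were given as FPKM, fragments per kilobase of transcript and per M (mega) mapped fragments, which corrects for transcript length and so allows genes to be compared. The depth read from the steps of low values was 1.92 to 58.2 M fragments per fRIP library (median 13.2, n = 70) and 11.9 to 30.4 M per input library (median 20.8, n = 9), with the ADAR libraries near the lowest end. The 8 erythroid and leukemic markers looked at, GATA1 and the fetal globin gene HBG2 among them, were above 1 FPKM in all 79 libraries. Of markers of other cells, KRT5 was at 0 in 69 libraries, MS4A1 in 68 and APOA1 in 62, and CD3E was under 1 FPKM in all 79, but CD3D (1.72 to 89.7 FPKM) and EPCAM (11.8 to 64.3 FPKM) were above 1 FPKM in all. The input set of each protein was taken as the one nearest to the input value that the authors' table of comparisons gives for it. By this rule set 2 served CHD1, NUP98, PCAF, RBBP5 and WDR5, set 3 served CBP, CHD7, EZH2, HUR, PABP and PHF8, and set 1 the other 13 proteins.

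In input, HSP90AB1 (453 ± 93.6 FPKM, mean ± SD, n = 9) and HSPA8 (414 ± 252 FPKM) were the most abundant of the 10 mRNAs. HSPD1 (187 ± 34.6 FPKM), HSP90AA1 (181 ± 74.9 FPKM) and HSP90B1 (178 ± 11.1 FPKM) followed and did not differ beyond their spread, and HSPA5 reached 88.7 ± 17.6 FPKM. HSPH1 (27.4 ± 13.0 FPKM), DNAJB1 (17.2 ± 3.33 FPKM), HSPA1B (12.2 ± 7.29 FPKM) and HSPA1A (10.1 ± 6.99 FPKM) were the lowest and again overlapped. The highest input library was 4.96 times the lowest for HSPA1A and 4.71 times for HSPA8, but 1.24 times for HSP90B1.

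In 8 of the 10 mRNAs the same library was the highest input. HSPA1A measured 17.2, 7.44 and 8.21 FPKM in libraries 1, 2 and 3 of input set 1, then 7.15, 7.92 and 26.0 in set 2, and 5.97, 5.32 and 5.25 in set 3. HSPA8 measured 383, 299 and 292 FPKM in set 1, then 308, 461 and 1062 in set 2, and 372, 322 and 226 in set 3. The library numbered 3 of set 2 was the highest of the 9 for both, and the same held for HSPA1B, HSPH1, DNAJB1, HSP90AA1, HSP90AB1 and HSPD1. In RNA of many cells, more RNA per cell and more cells that hold the RNA cannot be told apart. The ER chaperone HSPA5 went the other way, with 99.9, 83.9 and 51.9 FPKM in set 2 and 70.0 to 105.7 FPKM in the other 6 input libraries.

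The same pattern ran through the fRIP libraries numbered 3 of the 5 proteins served by set 2. HSPA1A measured 10.9, 14.1 and 38.0 FPKM in CHD1 fRIP and 9.50, 12.4 and 37.8 FPKM in PCAF fRIP. Over the 6 groups (5 fRIPs and the input set), HSPA1A of library 3 was 3.04 to 3.70 times the mean of libraries 1 and 2, HSPA1B 2.69 to 3.31 times, HSPA8 2.72 to 3.31 times and HSPH1 1.72 to 2.58 times. In a limma fit of these 18 libraries with group and number as terms, the mean difference of library 3 from the other 2 was 1.66 (log2) for HSPA1A, 1.64 for HSPA8, 1.5 for HSPA1B and 1.14 for HSPH1. The fit was added after library 3 of the input set had been seen to be high, and it includes that library. It takes the 6 libraries of a number as independent, so its values and calls are a description and no p is given for them. These 4 of 10 genes were called up, which here and below means an adjusted p under 0.05 and a difference above 2-fold, where 0.55% of all genes tested were called up. None was called down, against 1.6% of all genes.

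The other 6 genes moved by less than 2-fold. Library 3 was above by 0.84 for HSP90AA1, by 0.63 for DNAJB1, by 0.48 for HSPD1 and by 0.40 for HSP90AB1, and was the highest of the 3 libraries in 6 of 6 groups for each. HSPA5 differed by -0.92 and was the lowest in 6 of 6 groups, at 0.471 to 0.624 of the mean of libraries 1 and 2. HSP90B1 differed by -0.23 and was the lowest in 5 of 6 groups. Among 116 other chaperone genes, 2 were called up, which were DNAJA1 (1.10), an HSP40 of the cytosol, and HSPE1 (1.21), the lid of the HSPD1 chamber. The 4 called down were HERPUD1 (-2.32), SEL1L (-1.45), HSPA13 (-1.23) and DNAJB9 (-1.08), of which HERPUD1, SEL1L and DNAJB9 act in the degradation of misfolded ER proteins. These 6 were picked out after their values had been seen.

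**Figure D1:**
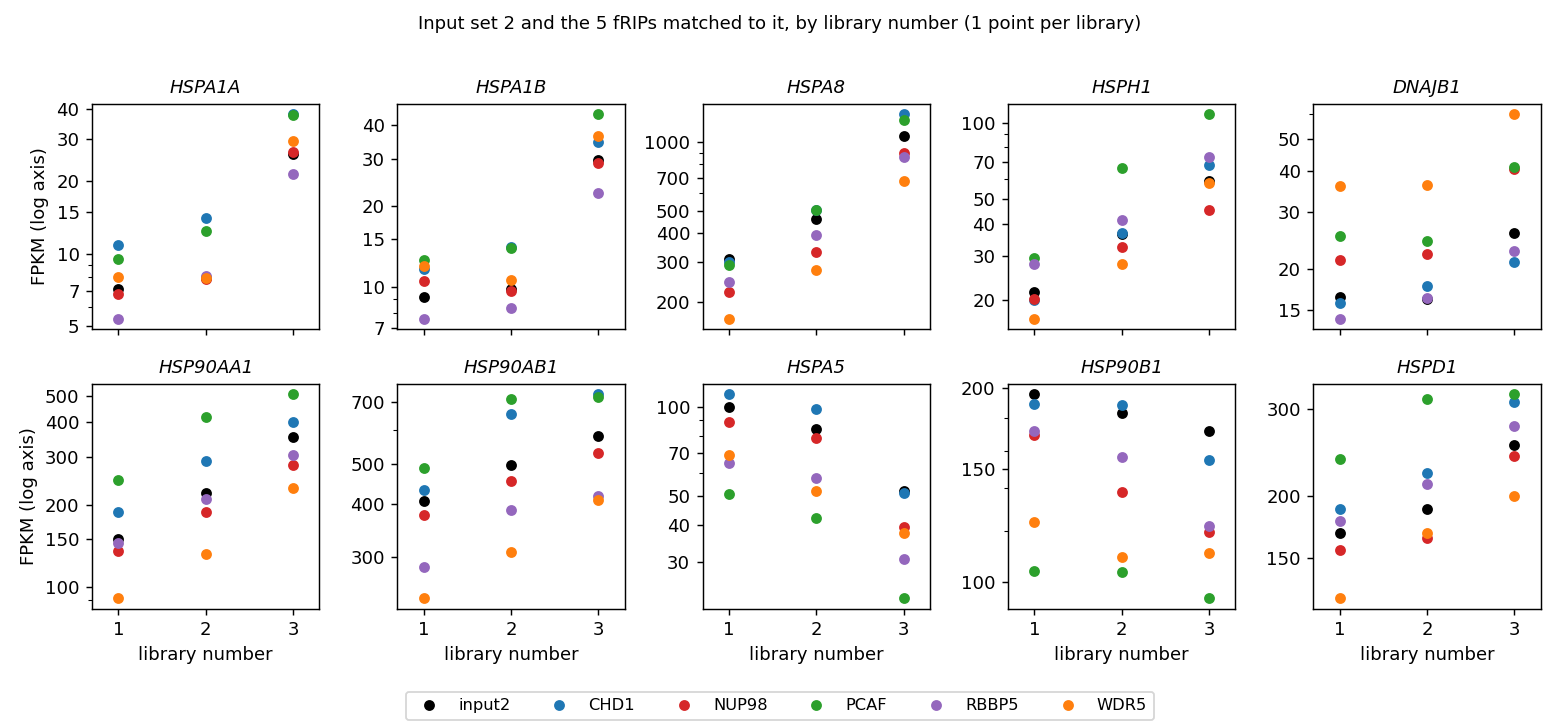
FPKM of the 10 mRNAs by library number in input set 2 and in the fRIPs of CHD1, NUP98, PCAF, RBBP5 and WDR5, on a log axis, with 1 panel per gene, 1 point per library and a colour per group (input2 is input set 2). Library 3 lies above libraries 1 and 2 in 6 of 6 groups for HSPA1A, HSPA1B, HSPA8 and HSPH1 and below them in 6 of 6 groups for HSPA5.

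In libraries numbered 1 of the same groups, HSPA8 (-1.33), HSPH1 (-1.15) and HSPA1A (-1.02) were called below the mean of libraries 2 and 3. That mean includes the high library 3, so these values partly restate it and are no separate observation. Library 2 differed from the mean of libraries 1 and 3 by -0.31, 0.0089 and -0.64 for these genes. The 3 of 10 compare with 0.153% of all genes called down, and 0 of 10 with 0.597% called up. In the groups of input set 1, HSP90AA1 and HSP90AB1 were each highest in library 3 in 12 of 13 groups. In that set 4, 6 and 6 of the 10 genes had an adjusted p under 0.05 for numbers 1, 2 and 3. At the same cut 8, 52 and 79 of the 116 other chaperone genes passed. An F test over the numbers gave an adjusted p under 0.05 for 28.4% of all genes. None of the 10 was called, but at most 0.0786% of all genes were called up there and 0.405% down. In the groups of input set 3, 0 of the 25442 genes tested were called for any number, so the count of 0 among the 10 says nothing about them. The study describes the replicates of a fRIP as made on separate days from separate lysates, but whether libraries of the same number in different groups share a day or lysate is not given in the sources used here. Results were also computed without these 6 libraries and with the replicate number as a block.

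Each fRIP was then compared with the 9 inputs, and with the mean of the other 23 fRIPs, in 1 limma fit of all 79 libraries. Over the 10 genes and 24 fRIPs there were 240 pairs. Against input, 9 pairs (3.75%) were called up and 9 (3.75%) down, where 6.9% and 5.52% of the pairs of all genes tested were called. Against the other fRIPs, 12 pairs (5.0%) were called up and 10 (4.17%) down, against 6.84% and 4.24% of all. Of the pairs called against input, 9 up and 8 down were also called against the other fRIPs. After each library was centred on its median, 20 pairs (8.33%) were called up and 22 (9.17%) down, against 7.04% and 6.58% of all. The calls made without centring lay in 9 fRIPs, which were DNMT1 with 3 up, SUZ12 with 2 up, LSD1 and WDR5 with 1 up each, PCAF with 2 up and 1 down, HNRNPH1 with 4 down, HUR with 2 down, and ADAR and EZH2 with 1 down each. Without the 6 libraries numbered 3 of input set 2 and its fRIPs, 9 pairs were called up and 6 down.

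**Figure D2:**
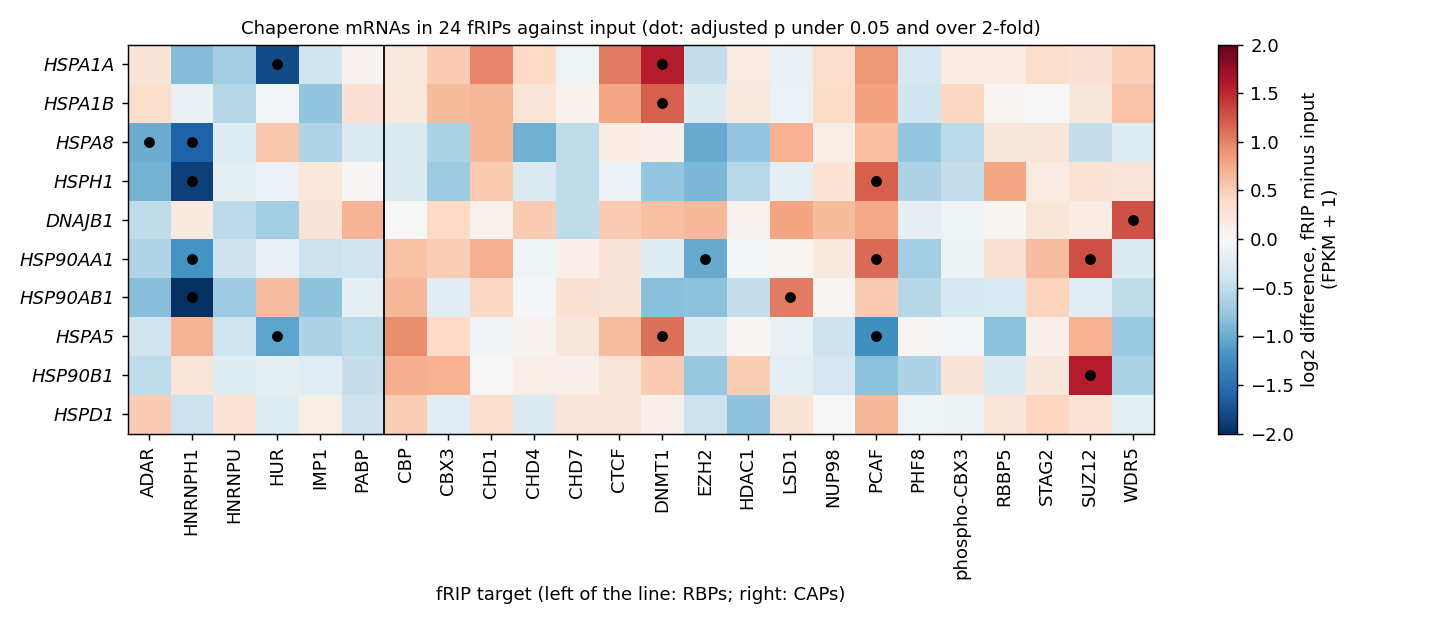
Heat map of the difference between fRIP and input in log2(FPKM + 1) for the 10 mRNAs (rows) in 24 fRIPs (columns), with red above and blue below input, dots on pairs called by limma at an adjusted p under 0.05 and over 2-fold, and a line between RNA binding (RBPs) and chromatin-associated proteins (CAPs). The 4 called pairs of HNRNPH1 (HSPA8, HSPH1, HSP90AA1 and HSP90AB1) stand out as the deepest blue column, and SUZ12 is red for HSP90AA1 and HSP90B1.

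HSPA1A (ENSG00000204389.7, hg19 chr6:31783320-31785723, plus strand) and HSPA1B (ENSG00000204388.5, hg19 chr6:31795515-31798031, plus strand) are neighbouring genes for stress-inducible HSP70, and the main transcript of each is a single exon. Their coding parts, of 1923 bases each, differed at 4 positions of the reference, counted from 1 at the A of the start codon (HSPA1A base first: G1710T, G1860C, C1905T and A1920G). As a result, 95.7% of the 31-base words of the coding part occur in both genes, whereas none of those after the coding part do. The stretch around the first difference is printed from hg19 (GRCh37), plus strand, to show how little of the coding part can tell the 2 mRNAs apart, with the base that differs in capitals.
HSPA1A, chr6:31785213-31785273: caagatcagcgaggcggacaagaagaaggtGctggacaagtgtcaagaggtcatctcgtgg
HSPA1B, chr6:31797407-31797467: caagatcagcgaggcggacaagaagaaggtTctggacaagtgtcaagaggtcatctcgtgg
Fragments from the shared part were assigned by the authors' quantification, so the level of each gene is less certain than their sum.

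Both genes were highest in DNMT1 fRIP. HSPA1A measured 51.3, 20.8 and 19.9 FPKM in the 3 DNMT1 libraries, and HSPA1B 41.3, 21.6 and 20.7 FPKM. The lowest DNMT1 library was above 8 of the 9 input libraries for each gene and below library 3 of input set 2. The difference from input was 1.57 ± 0.384 (log2, SE; limma, adjusted p = 0.000537) for HSPA1A and 1.2 ± 0.336 (adjusted p = 0.00253) for HSPA1B, and 1.42 ± 0.367 (adjusted p = 0.00103) for the sum of both. In DNMT1 fRIP 9.56% of all genes were called up against input and 8.6% against the other fRIPs, where HSPA1A (1.5) and HSPA1B (1.04) were called as well. The exact two-sided permutation test of the 3 DNMT1 and 9 input libraries gave p = 0.0182 for each, where 0.00455 is the smallest that 3 against 9 allow. HSPA1B was at 0.88 (adjusted p = 0.0653) without DNMT1 library 1 and at 0.87 (adjusted p = 0.0911) against input set 2 alone, and so not called in either. The HSPA1A values of these libraries include 16.4, 4.78 and 5.91 FPKM of another HSPA1A isoform (ENST00000458062.2) that is in the file but not in the annotation used here. The main HSPA1A isoform (ENST00000375651.5) alone measured 35.0, 16.0 and 14.0 FPKM there and was called up against input (1.11 ± 0.384; limma, adjusted p = 0.0198).

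HSPA1A was lowest in HUR fRIP, at 1.89, 1.86 and 1.72 FPKM, and each value was under the lowest input library (5.25 FPKM). The difference was -1.78 ± 0.384 (log2, SE; limma, adjusted p = 0.000115; exact permutation p = 0.00455) against input and -1.99 against the other fRIPs, where 6.93% and 8.08% of all genes were called down. HSPA1B measured 12.2, 10.5 and 9.67 FPKM in the same libraries, within its input range of 7.76 to 29.7 FPKM, and differed from input by -0.03 ± 0.336 (adjusted p = 0.963). The sum of both genes was not called in HUR fRIP (-0.61, adjusted p = 0.192).

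The ratio of HSPA1A to HSPA1B removes what moves both genes alike. It was 0.792 ± 0.0941 (n = 9) in input and between 0.666 and 0.951 in all 9 libraries, library 3 of set 2 included. In HUR fRIP it was 0.170 ± 0.0129 and in HNRNPH1 fRIP 0.437 ± 0.0565, below every input library, and in DNMT1 fRIP 1.06 ± 0.163, above every input library. Each of these 3 had an exact permutation p of 0.00455 (0.0364 after adjustment over the 24 fRIPs). The DNMT1 value rests on the isoform ENST00000458062.2: from the main isoform of each gene alone, a setting added after the data were seen, the ratio was 0.756 ± 0.0860 in DNMT1 fRIP and within the input range (0.790 ± 0.0933), while HUR (0.170 ± 0.0129) and HNRNPH1 (0.437 ± 0.0565) stayed below every input library (exact permutation p = 0.00455 each, 0.0545 after adjustment over the 24 fRIPs). Since the genes share nearly all of their coding part, whether this reflects the RNA that was recovered or how fragments were divided between them was not tested.

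Over the 24 fRIPs, the mean level of HSPA1A ran from HUR (1.82 ± 0.0896 FPKM) through HNRNPH1 (4.37 ± 0.714), HNRNPU (5.32 ± 1.94), EZH2 (5.96 ± 0.555), IMP1 (6.4 ± 0.710), PHF8 (7.02 ± 2.94), LSD1 (7.90 ± 1.08), CHD7 (8.19 ± 1.53) and PABP (9.25 ± 1.28). It went on through phospho-CBX3 (10.2 ± 2.73), HDAC1 (10.2 ± 3.29), CBP (10.2 ± 1.10), ADAR (10.9 ± 3.62), SUZ12 (11.1 ± 3.00), STAG2 (11.3 ± 0.225), RBBP5 (11.7 ± 8.59), CHD4 (12.03 ± 3.04), CBX3 (13.0 ± 3.06), NUP98 (13.8 ± 11.1), WDR5 (15.2 ± 12.4), PCAF (19.9 ± 15.6), CHD1 (21.0 ± 14.8) and CTCF (21.2 ± 13.2) to DNMT1 (30.7 ± 17.9). Of the 23 steps between neighbours in this order, 1 was larger than the SDs of both groups together, the one from HUR to HNRNPH1. The values of the 5 fRIPs of input set 2 depend on their library 3: without it the means were 6.75 FPKM in RBBP5, 7.34 in NUP98, 7.98 in WDR5, 10.96 in PCAF and 12.5 in CHD1 fRIP, and the means of all 3 libraries were 1.68 to 1.90 times these. NUP98 moved from place 19 to 8 of the 24, WDR5 from 20 to 10, RBBP5 from 16 to 6 and PCAF from 21 to 17, and CHD1 only from 22 to 21. Against the other fRIPs HSPA1A was also called down in HNRNPH1 fRIP (-1.03, adjusted p = 0.00624; 7.68% of all genes), while its difference from input there was -0.86.

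HSPA1B ran from IMP1 (6.04 ± 1.16 FPKM) through HNRNPU (7.29 ± 2.5), PHF8 (8.33 ± 2.80), EZH2 (9.05 ± 1.88), LSD1 (10.1 ± 1.44), HNRNPH1 (10.2 ± 2.75), HUR (10.8 ± 1.27), STAG2 (11.2 ± 1.82), CHD7 (11.6 ± 0.947), HDAC1 (12.7 ± 2.81), RBBP5 (12.8 ± 8.28) and CBP (13.0 ± 1.71). It went on through SUZ12 (13.2 ± 2.51), CHD4 (13.4 ± 3.18), PABP (13.8 ± 2.87), ADAR (14.8 ± 5.32), phospho-CBX3 (15.1 ± 2.20), NUP98 (16.4 ± 10.9), CBX3 (18 ± 4.75), WDR5 (19.6 ± 14.5), CHD1 (20.2 ± 12.7), CTCF (20.9 ± 10.2) and PCAF (23.5 ± 17.7) to DNMT1 (27.9 ± 11.6). No step between neighbours exceeded their SDs. Without library 3 the means were 7.98 FPKM in RBBP5, 10.1 in NUP98, 11.3 in WDR5, 12.9 in CHD1 and 13.3 in PCAF fRIP. This moves NUP98 from place 18 to 7 of the 24, WDR5 from 20 to 11 and RBBP5 from 11 to 3. PCAF moves from 23 to 17 and CHD1 from 21 to 14. In IMP1 fRIP, HSPA1B measured 5.11, 7.34 and 5.67 FPKM and was called down against the other fRIPs (-1.02 ± 0.298, adjusted p = 0.00318; 10.3% of all genes) but not against input (-0.78, adjusted p = 0.0539).

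**Figure D3:**
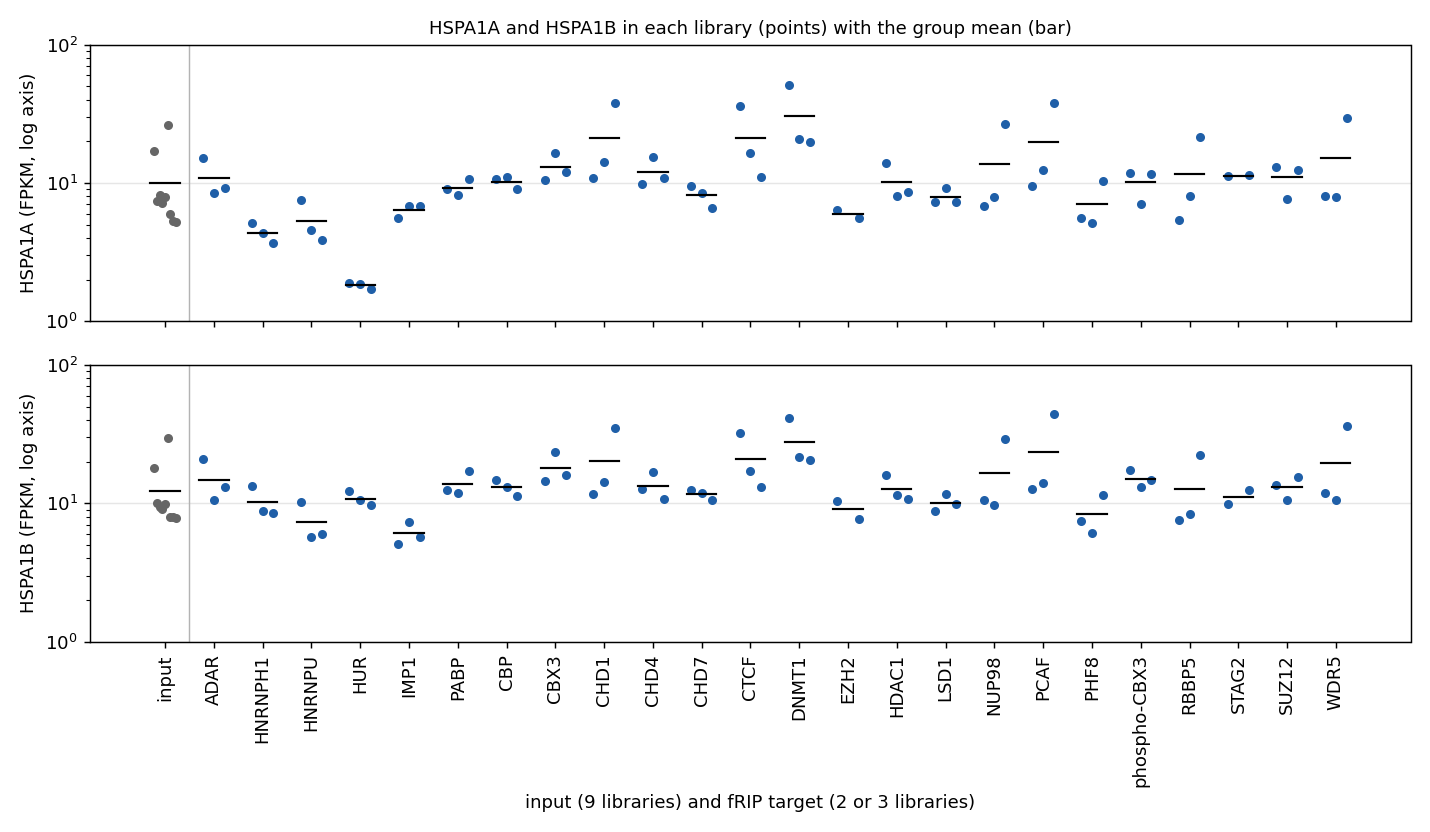
FPKM of HSPA1A and of HSPA1B in input and in each fRIP on a log axis, with 1 point per library and bars at the means. The HUR libraries of HSPA1A lie at 1.72 to 1.89 FPKM, below all inputs, while those of HSPA1B lie at 9.67 to 12.2 FPKM within the input range.

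HSPA1A and HSPA1B were also set beside 295 other mRNAs whose annotated isoforms are all single exons. The median difference of these from input lay between -0.39 (SUZ12) and 0.35 (HNRNPH1). In DNMT1 fRIP, where both genes were called up, it was -0.06 (0.31 over 13313 spliced mRNAs), and in HUR fRIP, where HSPA1A was called down, it was 0.02. In DNMT1 fRIP the difference of both intronless chaperone mRNAs was above that of all 8 spliced ones. The margin of HSPA1B (1.2) over HSPA5 (1.10), the highest spliced gene, was smaller than the SE of either. The main HSPA1A isoform alone was about level with HSPA5, so these values do not set the intronless mRNAs apart. In HUR fRIP the difference of HSPA1A was below all 8, whereas HSPA1B exceeded 6 of the 8.

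HSPA8 (ENSG00000109971.9, hg19 chr11:122928197-122933938, minus strand), the constitutive HSP70 of the cytosol, measured 124, 91.2 and 154 FPKM in HNRNPH1 fRIP. All 3 libraries were under the lowest input library (226 FPKM), with a difference of -1.62 ± 0.420 (log2, SE; limma, adjusted p = 0.000665; exact permutation p = 0.00455). In HNRNPH1 fRIP 7.9% of all genes were called down. HSPA8 was also called down in ADAR fRIP (234, 119 and 228 FPKM, a difference of -1.0 ± 0.420 with an adjusted p of 0.0354, where 4.31% of all genes were called down), but not against the other fRIPs (-0.76) nor against its own input set (-0.79), and the call was lost under 6 of 13 other settings and without ADAR library 2 (-0.68), library 1 of input set 1, or libraries 2 or 3 of input set 2. On the log2 scale it was highest in LSD1 fRIP (594, 433 and 847 FPKM), although the mean FPKM was higher in CHD1 fRIP (709 ± 544, with library 3 at 1325) and PCAF fRIP (681 ± 504). In LSD1 fRIP the difference was 0.69 from input and 1.01 ± 0.372 from the other fRIPs (adjusted p = 0.0293; 0.79% of all genes called up).

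HSPH1 (ENSG00000120694.15, hg19 chr13:31709110-31736525, minus strand), the HSP110 that resets HSP70, followed HSPA8 in HNRNPH1 fRIP. It measured 6.47, 5.70 and 6.63 FPKM there against 16.5 to 58.8 FPKM in input, a difference of -1.87 ± 0.372 (limma, adjusted p = 1.52e-05; exact permutation p = 0.00455). HSPH1 was highest in PCAF fRIP (29.4, 66.2 and 108 FPKM; 1.19 ± 0.372, adjusted p = 0.00906), where 0.515% of all genes were called up against input and 1.55% against the other fRIPs (HSPH1 1.46). Against its own input set, whose library 3 is the one that stood apart, the difference was 0.71 (adjusted p = 0.310 without and 0.0396 with the replicate number as a block), under 2-fold in either fit. It was not called without PCAF library 3 (0.77) or library 2 (1.12, adjusted p = 0.0526), nor without the libraries numbered 3 of set 2 (0.92, adjusted p = 0.0616). In RBBP5 fRIP, another protein of input set 2, HSPH1 measured 27.9, 41.6 and 73.6 FPKM and was called against the other fRIPs only (1.01 ± 0.329, adjusted p = 0.0123; 5.02% of all genes).

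DNAJB1 (ENSG00000132002.3, hg19 chr19:14625581-14671203, minus strand), the stress-inducible HSP40, was called in WDR5 fRIP. It measured 35.9, 36.2 and 59.6 FPKM there, and all 3 libraries were above the highest input library (25.9 FPKM). The difference was 1.28 ± 0.155 (limma, adjusted p = 7.66e-10; exact permutation p = 0.00455) against input and 1.10 ± 0.137 against the other fRIPs, where 3.9% and 2.94% of all genes were called up. Against its own input set it was 1.12 (adjusted p = 4.64e-06). Its lowest fRIP was HUR (10.3 ± 1.94 FPKM), where the difference of -0.68 was under 2-fold. The call in WDR5 fRIP held under all 13 other settings and without any 1 library.

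HSP90AA1 (ENSG00000080824.14, hg19 chr14:102547079-102606036, minus strand), the stress-inducible HSP90 of the cytosol, was highest in SUZ12 fRIP with 328, 396 and 543 FPKM. Of these libraries, 2 were above the highest input library (353 FPKM), and the difference was 1.28 ± 0.310 (limma, adjusted p = 0.000373; exact permutation p = 0.00909). In SUZ12 fRIP 15.3% of all genes were called up against input and 13.2% against the other fRIPs (HSP90AA1 1.33). Against input set 2 alone HSP90AA1 was not called in SUZ12 fRIP (0.86, adjusted p = 0.0580). It was lowest in HNRNPH1 fRIP (53.2, 74.95 and 97.8 FPKM, a difference of -1.2 ± 0.310 with an adjusted p of 0.000623), where it was not called against its own input set (-0.86) or without HNRNPH1 library 1 (-0.98). In PCAF fRIP it measured 246, 419 and 507 FPKM, with a difference of 1.14 ± 0.310 (limma, adjusted p = 0.00279). Against its own input set the difference was 0.72 (adjusted p = 0.190 without and 0.00216 with the replicate number as a block), under 2-fold in either fit. Without PCAF library 3 it was 0.92 (adjusted p = 0.0532). The 2 EZH2 libraries measured 120 and 57.9 FPKM (-1.01, adjusted p = 0.0198; 9.13% of all genes called down against input and 5.9% against the other fRIPs), and this call was lost under 7 of 13 other settings and without EZH2 library 2 (-0.49), libraries 2 or 3 of input set 2, or libraries 1 or 2 of input set 3.

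HSP90AB1 (ENSG00000096384.15, hg19 chr6:44213903-44221625, plus strand), the constitutive HSP90, showed the largest difference of all pairs. In HNRNPH1 fRIP it measured 98.2, 91.8 and 149 FPKM against 335 to 582 FPKM in input, a difference of -2.0 ± 0.227 (limma, adjusted p = 2.06e-11; exact permutation p = 0.00455). In LSD1 fRIP it measured 894, 878 and 938 FPKM, all above input, with a difference of 1.02 ± 0.227 (adjusted p = 0.000324) against input and 1.27 ± 0.201 against the other fRIPs, where 0.814% of all genes were called up against input. Its increase fell just under 2-fold against input sets 2 and 3 taken alone, and in 4 of the fits that left out 1 library (input libraries 1 and 3 of set 1, input library 3 of set 3 or LSD1 library 3; the lowest was 0.97).

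In HNRNPH1 fRIP the genes called against input were HSPA8, HSPH1, HSP90AA1 and HSP90AB1. The differences of HSPA1A (-0.86), HSPA1B (-0.13), DNAJB1 (0.17), HSPA5 (0.68), HSP90B1 (0.24) and HSPD1 (-0.43) were under 2-fold. The median difference of all genes tested was 0.34 in this fRIP, on the other side of 0 from the 4 decreases. When each library was centred on its median, these differences grew to between -1.94 (HSP90AA1) and -2.73 (HSP90AB1), and HSPA1A (-1.60) and HSPD1 (-1.16) were called down as well. After centring HSPA1B was at -0.86, and DNAJB1 (-0.56), HSP90B1 (-0.49) and HSPA5 (-0.053) lay below 0, so which genes were called, and the direction of these 3, depended on the scaling.

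HSPA5 (ENSG00000044574.7, hg19 chr9:127997132-128003661, minus strand), the HSP70 of the ER, measured 153, 255 and 169 FPKM in DNMT1 fRIP, all above the highest input library (105.7 FPKM), with a difference of 1.10 ± 0.257 (limma, adjusted p = 0.000296; exact permutation p = 0.00455). The difference fell under 2-fold against input set 3 alone (0.87) and without DNMT1 library 2 (0.88). In CBP fRIP it measured 161, 167 and 171 FPKM, also all above input, and was called against the other fRIPs (1.05 ± 0.227, adjusted p = 0.000145; 7.78% of all genes) but stayed under 2-fold against input (0.93). It was below every input library in HUR fRIP (41.9, 44.8 and 36.9 FPKM; -1.06 ± 0.257, adjusted p = 0.000543) and in PCAF fRIP (50.9, 42.2 and 22.7 FPKM; -1.22 ± 0.257, adjusted p = 0.000121). The call in HUR fRIP was lost against input set 2 alone (-0.87) and without HUR library 3 (-0.99). In PCAF fRIP 8.54% of all genes were called down against input and 8.05% against the other fRIPs, and HSPA5 fell just under 2-fold there without the libraries numbered 3 of set 2 (-0.98, adjusted p = 0.00149) or without PCAF library 3 alone (-0.89), and to -0.61 after centring (adjusted p = 0.0284).

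HSP90B1 (ENSG00000166598.8, hg19 chr12:104323885-104347709, plus strand), the HSP90 of the ER, was called in SUZ12 fRIP, with 514, 700 and 416 FPKM against 158 to 196 FPKM in input. The difference from input was 1.58 ± 0.161 (limma, adjusted p = 8.02e-13; exact permutation p = 0.00455). In the order of its 24 fRIPs, the step from CBP (0.72 from input) to SUZ12 was the only 1 that exceeded the SDs of both groups. The difference of SUZ12 from input lay between 1.53 and 1.62 under 13 other settings. Its lowest fRIP was PCAF (104, 104 and 94.2 FPKM), where the difference of -0.81 was under 2-fold.

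HSPD1 (ENSG00000144381.12, hg19 chr2:198351308-198381461, minus strand), the mitochondrial chaperonin, was called in none of the 24 fRIPs against input, unless libraries were centred on their medians. Its differences ran from -0.81 in HDAC1 fRIP (105, 90.5 and 121 FPKM) to 0.64 in PCAF fRIP (238, 315 and 321 FPKM), and their SD over the 24 fRIPs was 0.36, against 0.46 to 0.69 for the other 9 genes. After centring it was called down in HDAC1 (-1.09) and HNRNPH1 fRIP (-1.16) and up in PCAF fRIP (1.25), and its difference in ADAR fRIP went from 0.51 to -0.47.

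The isoforms of the 10 genes were tested in the same way. Of the 85 isoforms, 68 passed the filter, and 20 of these were annotated as retaining an intron. Against input, 151 of 1632 pairs of isoform and fRIP were called up and 125 down, where 7.29% and 5.47% of the pairs of all isoforms were called. Of the 151, 88 were of retained-intron isoforms, and so were 43 of the 125. That is 18.3% up and 8.96% down of the 480 pairs of a retained-intron isoform, against 10.3% and 6.62% for the retained-intron isoforms of other genes. FPKM of isoforms of 1 gene are estimates that divide shared fragments. The 20 retained-intron isoforms belong to 5 genes (HSPA8, HSPH1, HSP90AA1, HSP90B1 and HSPD1), so neither they nor their pairs are separate outcomes. The isoforms of other genes set beside them were not matched in level.

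In SUZ12 fRIP, 32 of the 68 isoforms were called up (21.3% of all isoforms). These included 20 of 20 retained-intron isoforms, which come from 5 genes. Of the retained-intron isoforms of other genes, 39.8% were called up. The counts were 14 of 20 in CBX3 fRIP (32.7%), 12 of 20 in PHF8 fRIP (19.1%) and 10 of 20 in CBP fRIP (33.3%). In PABP fRIP, the fRIP of the poly(A) tail binding protein, 10 of 20 were called down (34.3%). For HSP90AA1, the main isoform (ENST00000216281.8, 11 exons) was at 169 ± 73.5 FPKM in input and 177 ± 56.8 FPKM in SUZ12 fRIP, whereas its most abundant retained-intron isoform in input (ENST00000557089.1, 2 exons, hg19 chr14:102549779-102550571) went from 2.78 ± 1.37 to 47.8 ± 15.3 FPKM, a difference of 3.74 ± 0.296 (limma, adjusted p = 2.05e-16). That isoform was called up in CBP, CBX3, HNRNPH1 and PHF8 fRIP too, and was at 0 in the 3 PABP libraries.

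For HSP90B1, the main isoform (ENST00000299767.5, 18 exons) differed from input by less than 2-fold in SUZ12 fRIP (287 ± 69.8 against 154 ± 10.8 FPKM), and its retained-intron isoform ENST00000551983.1 (3 exons, hg19 chr12:104335612-104337245) went from 7.93 ± 1.98 to 95.1 ± 32.4 FPKM (3.41 ± 0.360; limma, adjusted p = 5.64e-12). The retained-intron isoforms of HSPA8 (ENST00000531063.1, 3.71 ± 2.45 to 21.5 ± 9.47 FPKM, 2.36), of HSPD1 (ENST00000461097.1, 8.01 ± 2.71 to 34.0 ± 1.14 FPKM, 2.01) and of HSPH1 (ENST00000469538.2, 0.0822 ± 0.247 to 3.68 ± 1.89 FPKM, 2.04) were called up in SUZ12 fRIP as well. The main isoform of HSPD1 in input (ENST00000388968.3, 12 exons) fell in SUZ12 fRIP from 65.8 ± 19.4 to 3.26 ± 2.73 FPKM (-4.25 ± 0.391; adjusted p = 5.26e-14), which was also called down in ADAR fRIP (10.0 ± 11.6 FPKM, -3.45) and HNRNPH1 fRIP (28.3 ± 8.45 FPKM, -1.17). Another coding isoform of 12 exons, ENST00000345042.2 (hg19 chr2:198351310-198364998), named after its values had been seen, was nearly as abundant in input (56.3 ± 12.5 FPKM) and measured 53.9 ± 10.5 FPKM in SUZ12 fRIP (-0.05, adjusted p = 0.965), and was called down in DNMT1, EZH2, HUR and PHF8 fRIP. The HSPD1 gene value in SUZ12 fRIP was 226 ± 39.4 FPKM (0.28, adjusted p = 0.162).

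The share of a gene's FPKM in retained-intron isoforms was described as well, without a test. For HSP90AA1 it was 3.78 ± 2.13% in input, 34.8 ± 7.70% in SUZ12 fRIP (27.3, 42.7 and 34.4% by library) and 54.0 ± 6.93% in HNRNPH1 fRIP (48.9, 61.9 and 51.2%). For HSP90B1 the share was 13.2 ± 2.05% in input, 47.0 ± 3.98% in SUZ12 fRIP, 51.9 ± 2.25% in PHF8 fRIP, 57.6 ± 3.15% in DNMT1 fRIP and 58.4 ± 4.26% in HNRNPH1 fRIP. The isoforms of HSP90B1 did not all follow in HNRNPH1 fRIP, where ENST00000551983.1 and ENST00000552051.1 were called down. Of the 20 retained-intron isoforms, 7 were called up in that fRIP and 2 down, against 39.9% and 2.61% of those of other genes. For the other genes the share is given in the same way. For HSPD1 the share went from 11.95 ± 2.54% to 49.9 ± 2.17% in SUZ12 fRIP and 56.7 ± 6.36% in ADAR fRIP. For HSPA8 it went from 2.08 ± 0.949% to 26.8 ± 6.86% in SUZ12 fRIP. In PABP fRIP the share was 0.121 ± 0.117% for HSP90AA1 and 0.230 ± 0.0562% for HSPA8, but 14.4 ± 8.66% for HSP90B1. The 3 PABP libraries of HSP90B1 were at 24.3, 8.44 and 10.4%, respectively above, under and within the input range (9.97 to 16.8%), and their mean was 9.44% without library 1. Over 5169 genes with such isoforms, the median share was 12.9% in input, 26.0% in SUZ12 fRIP, 32.1% in HNRNPH1 fRIP and 1.31% in PABP fRIP. In DNMT1 fRIP it was 11.3%, below input, in PHF8 fRIP 21.8% and in ADAR fRIP 25.3%.

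**Figure D4:**
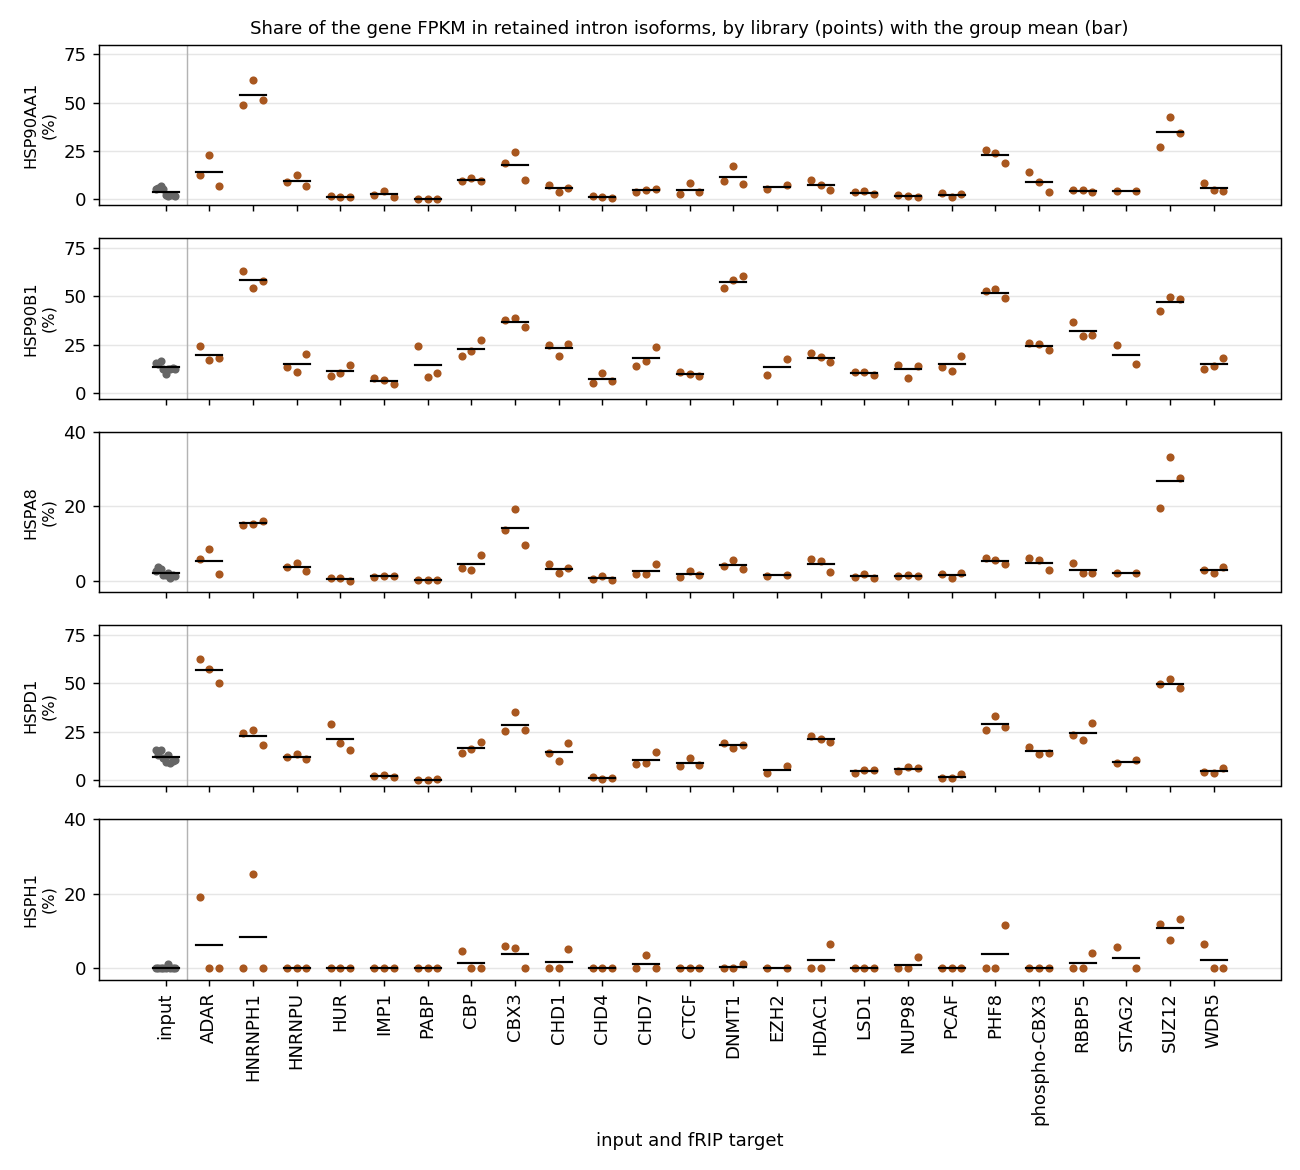
Percent of each gene's FPKM in retained-intron isoforms for HSPA8, HSPH1, HSP90AA1, HSP90B1 and HSPD1 in input and 24 fRIPs, with 1 point per library and bars at the means. The SUZ12 means lie between 10.8% (HSPH1) and 49.9% (HSPD1), above input for all 5 genes, and the PABP means lie below input for all but HSP90B1, whose PABP library 1 is at 24.3%.

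Outside the 10 genes, 122 other chaperone genes were listed by family, and 116 passed the filter. Against input, 141 of their 2784 pairs (5.07%) were called up and 138 (4.96%) down, beside the 6.9% and 5.52% of all genes. They were called up most often in SUZ12 fRIP (21 of 116, 15.3% of all genes), PABP fRIP (19 of 116, 11.1%) and ADAR fRIP (17 of 116, 26.6%), and down most often in HNRNPH1 fRIP (21 of 116, 7.9%) and HDAC1 fRIP (15 of 116, 5.35%). In HNRNPH1 fRIP the genes called down included 7 of 15 chaperonins and prefoldins (TCP1, CCT2, CCT3, CCT7, CCT8, PFDN4 and VBP1), which fold actin and tubulin, with PFDN6 called up, and 6 of 27 HSP90 genes and co-chaperones (PTGES3, BAG1, BAG2, STUB1, HSPBP1 and TTC4), with AARSD1 called up. In PABP fRIP 7 of the 15 chaperonins and prefoldins were called up and 0 down. In SUZ12 fRIP 12 of 37 HSP40 genes were called up and 1 down.

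By family, the genes called in most fRIPs were as follows. Among HSP70 relatives, the inducible HSPA6 rose from 2.06 ± 0.481 FPKM in input to 27.7 ± 14.6 FPKM in the 2 EZH2 libraries (3.14 ± 0.203; limma, adjusted p = 2.82e-20), and HYOU1 of the ER was highest in CBP fRIP (1.43) and lowest in PCAF fRIP (-1.49). Among HSP40 genes, DNAJC19 ranged from 1.95 (PABP) to -1.54 (HDAC1). The prefoldin subunits PFDN5 and PFDN6 ranged from 1.96 (PABP) to -1.92 (IMP1) and from 2.23 (HNRNPH1) to -1.69 (HUR). HSPB1, a small heat shock protein, was called down in 9 fRIPs, most in HNRNPH1 (-2.5), and up in PABP fRIP (156 ± 3.63 against 36.2 ± 11.7 FPKM; 2.14), and HSPB11 ranged from 1.73 (ADAR) to -1.38 (LSD1).

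Among co-chaperones, HSPBP1 was lowest in HUR fRIP (-2.10) and highest in DNMT1 fRIP (1.06), and UNC45A ranged from 1.47 (CBP) to -1.31 (PABP). Of the ER folding genes, UGGT2, which checks the folding of glycoproteins, rose to 181 ± 17.3 FPKM in SUZ12 fRIP from 25.9 ± 5.67 FPKM in input (2.78) and was lowest in PABP fRIP (-1.62), and SDF2L1 ranged from 1.71 (PABP) to -2.52 (HUR). Of the heat shock factors and their regulators, HSF4 reached 305 ± 41.5 FPKM in CBP fRIP against 20.6 ± 7.04 FPKM in input (3.87 ± 0.232; limma, adjusted p = 1.33e-21), and HSBP1 ranged from 1.79 (PABP) to -1.72 (HDAC1).

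The pattern of each gene over the 24 fRIPs was set beside that of 25432 other genes by the Pearson correlation of mean log2(FPKM + 1), as a description, since all share the same libraries. HSP90AB1 was most like the pseudogene HSP90AB3P (0.94) and TARS (0.86), HSPA5 like POMT1 (0.91) and HYOU1 (0.89), HSP90AA1 like EXOSC9 (0.88), HSPH1 like CSE1L (0.87) and BCCIP (0.86), and HSP90B1 like HHIPL2 and NXF4 (0.86 each). HSPA1A was most like ALDOC (0.86) and TUBB4B (0.84), DNAJB1 like GATA2 (0.83) and SPRY2 (0.82), HSPD1 like RARS (0.80) and SAMHD1 (0.75), HSPA8 like RP11-405A12.1 (0.79) and TCP1 (0.78), and HSPA1B like ARPC4-TTLL3 (0.78) and RP11-20I23.1 (0.73). Within the 10 genes, the highest values were HSPA1A with HSPA1B (0.78), HSPA8 with HSP90AB1 (0.75), HSPA5 with HSP90B1 (0.75) and HSPA8 with HSPH1 (0.73), while that of HSPH1 with HSPA5 was -0.54. The means of 5 fRIPs include the libraries numbered 3 of set 2, and without these the value was 0.61 for HSPA8 with HSPH1, -0.40 for HSPH1 with HSPA5, and 0.75, 0.78 and 0.73 for the other 3 pairs. Without them RP11-405A12.1 was at place 44 and TCP1 at place 10 among the genes most like HSPA8, BCCIP at place 9 for HSPH1, HYOU1 at 8 for HSPA5, SPRY2 at 5 and GATA2 at 4 for DNAJB1, TUBB4B at 4 for HSPA1A and NXF4 at 4 for HSP90B1, while the others named stayed among the 2 most alike. These genes share sequence with others, whose part in these values was not tested: 32.6% of the 31-base words of the main HSP90AB1 transcript occur in HSP90AB3P, and 50.9% of those of HSPD1, 46.3% of HSPA8, 39.3% of HSP90AA1, 26.6% of HSP90B1 and 18.7% of HSPA5 occur in other genes of the annotation, many of them pseudogenes, against 0.46% for HSPH1.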

How the data were processed

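Gene expression of 70 fRIP and 9 input libraries of K562 cells was analysed. The authors sequenced paired-end reads, aligned them with TopHat to hg19 and quantified GENCODE genes and isoforms with Cuffdiff, and the submitters' processing notes also name Cuffnorm and CASAVA 1.4. The deposited tables of genes and isoforms hold FPKM of each library. A further deposited table holds the authors' fold changes, statistics and p-values, of which only the input value was used, to match each protein to an input set. The sources used here do not give the counting strand or the read filters. No column was left unassigned to a sample (0).

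From these, log2(FPKM + 1) was tested with limma 3.58.1 (intensity trend) in R 4.3.3, in 1 fit with a mean per protein and 1 for the 9 inputs. Genes and isoforms that reached 1 FPKM in 2 or more libraries were tested (25442 and 104506), p-values were adjusted by Benjamini-Hochberg within each comparison, and calls needed an adjusted p under 0.05 and over 2-fold. A change on this scale understates that of low genes. Exact permutation tests (two-sided) were added for single values. The study describes the replicates of a fRIP as biological, from separate days and lysates, and does not say so of the inputs, so part of the spread behind the p-values may be technical. Genes were matched by identifier to GENCODE lifted to hg19 (46055 of 48453 genes, 172143 of 185661 isoforms), which gave the hg19 coordinates and exon numbers. Promoters are from RefSeq GRCh38.p14. Python 3.11.15, numpy 2.4.6, pandas 2.3.3 and matplotlib 3.10.9 were used, and the fit was tested on simulated data.

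Depth was read from the steps of low values, of which 88.5% to 92.0% per library lay within 0.15 of a whole multiple of 1 fragment. Deviations from the group means correlated with those of the same-numbered input at over 0.1 in all 3 pairs for CHD1, NUP98, PCAF and WDR5. By this rule, from the data alone, replicate numbers paired the libraries of these proteins. RBBP5 missed it with 0.088 in the lowest pair, although its mean was 0.274 for the same number and -0.134 for other numbers. The remaining proteins did not meet the rule, which does not show that their replicate numbers are unrelated. The sample labels and the table number the second STAG2 library differently, so it entered without a number. The fit by library number, the values without the libraries numbered 3 of input set 2, the paralog ratio from main isoforms and the shares of retained-intron isoforms were added after the data had been seen. The 10 genes and the lists of other chaperone genes were chosen with earlier results of these data known. Named were all 10 genes, with libraries where called against both input and other fRIPs (at most 4 fRIPs per gene), HSPA1A and HSPA1B in every fRIP, the 2 genes of each other list called in most fRIPs, the 2 genes most alike (items not reported here left out of both), and the most abundant main and retained-intron isoform in input. Pairs called in 1 contrast alone and the genes listed for HNRNPH1 fRIP were named after their values had been seen. Alternatives covered pseudocounts of 0.1 and 0.5 FPKM, filters, centring, each input set, the matched set, replicate blocks, each protein's own libraries with the inputs, and each library left out.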

Additional observations from a re-analysis of the deposited data

Results flagged for a closer look

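Of the 10 mRNAs, 5 had 1 input library whose gap to the nearest of the other 8, divided by the range of all 9, was above Dixon's 95% critical value of 0.493, and in each of the 5 it was library 3 of input set 2. It measured 1062 FPKM for HSPA8, 353 FPKM for HSP90AA1, 58.8 FPKM for HSPH1, 29.7 FPKM for HSPA1B and 25.9 FPKM for DNAJB1. Chance alone gives such a gap in about 1 of 20 groups, and the 5 values are of 1 library and so not independent. The fRIP libraries with the same number in this set were high for the same mRNAs, as given in the report. Whether these same-numbered libraries share a day or lysate is not given in the sources used here.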

How the results depend on the processing

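The main fit called 9 pairs of the 10 genes up and 9 down against input. Centring each library on its median gave 20 and 22, and input set 2 alone gave 5 and 19. Against the other fRIPs, 12 pairs were called up and 10 down, with 7 up when the replicate number was a block within the matched input set and 23 down after centring. For isoforms, 125 pairs were called down and 81 against input set 3 alone. For the other chaperone genes, 141 pairs were called up and 138 down. Centring gave 246 and 243, input set 1 alone 234 and 80, input set 2 alone 209 down, the matched set 88 down and the block within it 89 down. The causes of these shifts were not tested, beyond the shift of all genes by centring, which was between -0.98 (ADAR) and 0.61 (PCAF). Leaving out 1 library gave 8 to 12 pairs up and 7 to 11 down against input for the 10 genes, 10 to 14 up and 8 to 12 down against the other fRIPs, 140 to 166 and 114 to 133 for isoforms, and 134 to 152 and 125 to 154 for the other chaperone genes.

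A block on the replicate number over all libraries kept 17 of 18 named pairs and lost HSP90AA1 in EZH2 fRIP. HSPA8 in ADAR fRIP and HSP90AA1 in EZH2 fRIP were lost most often. No called pair changed direction under any setting run. The log2 ratio of HSPA1A to HSPA1B in DNMT1 fRIP, 0.41 above input from gene values, was -0.062 from it when the main isoforms alone were used (exact permutation, adjusted p = 0.718), and the adjusted p in HUR and HNRNPH1 fRIP went from 0.0364 to 0.0545 with differences of -2.21 and -0.85. ADAR libraries hold the fewest fragments, so their low isoform values are the least precise.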
